A study of Mus musculus with 17 samples.

Results

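The genes of the respiratory chain and the ATP synthase, together with Ucp2, were followed in synovial macrophages of immune complex-challenged and control mice. They were chosen by name. Symbols starting with Nduf, Uqcr, Atp5 or Cox followed by 4 to 8, the symbols Sdha to Sdhd, the protein-coding genes of the mitochondrial genome and Ucp2 were taken, and symbols containing -ps were left out. Of 119 matching symbols 9 were left out, so that 110 of the 22859 genes in the count table were members. These were 96 nuclear genes, 13 mitochondrial genes and Ucp2. The nuclear genes were 41 named as subunits of complex I, 8 complex I assembly factors of the Ndufaf series, 4 of complex II, 8 of complex III, 18 of complex IV and 17 of complex V. Cox6c2, Ndufa11b, Ndufb4c and Ndufs6b, which are processed pseudogenes in GENCODE M21, were kept among them because their symbols lack -ps. The mitochondrial genes were 7 of complex I, 1 of complex III, 3 of complex IV and 2 of complex V. A minimum of counts was required before a gene was tested, which 92 nuclear genes, all 13 mitochondrial genes and Ucp2 passed. The 4 members that failed it were Cox4i2, Cox6c2, Ndufb11b and Ndufs6b.

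All mice were adults labelled Fcgr2b-KO, so every group carries the knockout label for the inhibitory Fcγ receptor and no wild-type macrophages were among the libraries. Immune complexes (IC), made of ovalbumin and rabbit antibody to it, had been injected into a vein 8 h before the synovium was taken, and control mice carry the labels Healthy and Control. Collagenase-digested synovium was sorted into a LYVE1+CX3CR1+ subset and, among MHCII+ macrophages, a CD11c- and a CD11c+ one, here written MHCII+CD11c- and MHCII+CD11c+, and 5 ng of total RNA went into each stranded total RNA library. Of the 6 groups, that of IC-challenged MHCII+CD11c+ macrophages had 2 libraries and every other group had 3. The labels do not say whether replicates came from separate mice or pools, so p-values measure the spread between these 17 libraries, which may be technical.

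Complexes I to IV of the inner mitochondrial membrane pass electrons from NADH and succinate to oxygen, complexes I, III and IV pump protons while doing so, and complex V uses the proton gradient to make ATP. Most subunits are encoded in the nucleus and imported, while a small core of complexes I, III, IV and V is encoded by mitochondrial DNA. Ucp2 is an inner membrane carrier of the uncoupling protein family that is abundant in macrophages, and Cox7a2l is a relative of a complex IV subunit that helps to join complexes III and IV into supercomplexes.

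Libraries held between 2301913 and 7248939 counts assigned to genes, so a count of 3 in a library corresponded to 0.418 to 1.24 CPM, the unit used here for counts scaled to the size of each library. Nuclear members took 0.351% to 0.593% of the counts, mitochondrial members 0.518% to 1.19% and mitochondrial ribosomal RNA 6.28% to 12.4%. Between 11547 and 14068 genes were detected in LYVE1+CX3CR1+ libraries after IC and between 13888 and 19926 in all other libraries. Fcgr2b itself had 69.1 to 248 CPM in all libraries. The exons removed from the allele are not given in the sources used here, so this level does not check the genotype. The summed level of 6 macrophage markers was 1427 to 2231 CPM in MHCII+CD11c+ control libraries and 4811 to 7389 CPM in the other control libraries. Fewer cells of a type and less RNA per cell cannot be told apart in these bulk libraries.

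The start regions of 4 nuclear genes on which the comparisons turned are shown here, each as the 250 bases before the transcription start in RefSeq (GRCm38.p6), read 5′ to 3′. Ucp2 and Cox7a2l were the members called after IC within a subset, and Ndufa6 and Atp5c1 were higher in MHCII+CD11c+ than in LYVE1+CX3CR1+ control macrophages. Capitals mark a match to the core motif of nuclear respiratory factor 1 (NRF1), a known activator of respiratory chain genes, searched on both strands over 10 letters. Atp5c1 is shown because it was the member among those called between control subsets by edgeR that held the motif, and a further start listed for it upstream is not shown.
Ucp2, chr7:100493108-100493357, plus strand: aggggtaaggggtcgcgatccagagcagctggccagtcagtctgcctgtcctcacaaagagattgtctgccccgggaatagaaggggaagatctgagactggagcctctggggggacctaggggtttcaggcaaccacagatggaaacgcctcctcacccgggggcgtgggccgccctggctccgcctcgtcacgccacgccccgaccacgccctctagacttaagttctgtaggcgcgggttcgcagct
Cox7a2l, chr17:83514334-83514583, minus strand: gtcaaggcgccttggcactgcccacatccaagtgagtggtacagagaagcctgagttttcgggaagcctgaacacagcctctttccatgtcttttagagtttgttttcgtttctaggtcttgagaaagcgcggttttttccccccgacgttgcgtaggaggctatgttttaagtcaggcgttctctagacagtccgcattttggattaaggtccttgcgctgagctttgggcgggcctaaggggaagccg
Ndufa6, chr15:82354292-82354541, minus strand: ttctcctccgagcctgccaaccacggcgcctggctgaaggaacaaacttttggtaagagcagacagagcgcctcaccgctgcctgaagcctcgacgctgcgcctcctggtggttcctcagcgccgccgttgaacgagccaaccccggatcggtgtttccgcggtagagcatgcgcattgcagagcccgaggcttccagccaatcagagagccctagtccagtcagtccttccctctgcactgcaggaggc
Atp5c1, chr2:10080433-10080682, minus strand: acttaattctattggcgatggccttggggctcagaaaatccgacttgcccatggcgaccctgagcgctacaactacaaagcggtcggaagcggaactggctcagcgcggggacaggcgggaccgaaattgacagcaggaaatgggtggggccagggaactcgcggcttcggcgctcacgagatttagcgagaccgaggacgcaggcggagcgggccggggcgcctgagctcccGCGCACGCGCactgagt
The motif began 17 bases before the start of Atp5c1 and was not found in these windows of Ucp2, Cox7a2l and Ndufa6. Across the 75 nuclear members with an entry, 8 (10.7%) held it, against 560 of 27025 genes in the same windows (2.07%). The ETS core, ACCGGAAG, which can share at most 1 base with the former, was held by 4 of the 75 (5.33%) against 1.95% of all genes. A match describes letters in the window and is not a measured binding site.

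Ucp2 was called higher after IC in 2 of the 3 subsets. Its level in control LYVE1+CX3CR1+ macrophages was 776, 800 and 819 CPM, and in the IC libraries it was 1877, 1587 and 1918 CPM. Every IC library was above every control library, and the log2 fold change was 1.17 ± 0.15 (SE, n = 3 and 3, adjusted p = 0.00016 by edgeR's quasi-likelihood test with Benjamini-Hochberg adjustment over 15272 genes). Of all genes tested in this comparison, 0.151% were called higher and 0.812% lower at an adjusted p under 0.05. All 16 alternative analyses also called it, with log2 fold changes of 1.11 to 1.26 and adjusted p-values of 1.76e-14 to 0.0035.

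In MHCII+CD11c- macrophages, Ucp2 stood at 725, 815 and 656 CPM in controls and at 1454, 1230 and 1596 CPM after IC. The groups again did not overlap, the log2 fold change was 0.96 ± 0.15 (adjusted p = 0.0011 by edgeR) and all 16 alternatives called it, the highest adjusted p being 0.0352 when only these groups were fitted. Here 0.543% of all genes were called higher and 0.157% lower. Control MHCII+CD11c+ macrophages had 1346, 1151 and 1190 CPM and the libraries after IC had 1525 and 1642 CPM. These values did not overlap either, but the log2 difference of 0.37 ± 0.16 did not pass the test (adjusted p = 0.873 by edgeR), and none of the 15 alternatives called it. In this subset 0.216% of all genes were called higher and 0% lower.

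Markers of the subsets moved with IC as well. In MHCII+CD11c- macrophages the sum of H2-Ab1, H2-Aa, H2-Eb1 and Cd74 was 16290 to 17569 CPM in controls and 11106 to 11550 CPM after IC, and the sum of Lyve1, Cx3cr1, Timd4, Folr2 and Vsig4 was 986 to 1717 CPM in controls and 1813 to 3286 CPM after IC. In LYVE1+CX3CR1+ macrophages the former went from 102 to 155 CPM in controls to 19.8 to 49.0 CPM after IC, and the latter from 3544 to 4375 CPM to 5548 to 6502 CPM. None of these ranges overlapped, whereas in MHCII+CD11c+ macrophages both sums overlapped. Genes of the sum with Lyve1 did not move together, Lyve1 itself rising without overlap in LYVE1+CX3CR1+ and MHCII+CD11c- macrophages. Cx3cr1 fell in LYVE1+CX3CR1+ macrophages, from 434, 333 and 527 CPM in controls to 244, 253 and 304 CPM after IC. In MHCII+CD11c- macrophages Cx3cr1 was 57.9, 150 and 92.4 CPM in controls and 154, 40.9 and 16.5 CPM after IC. In MHCII+CD11c+ macrophages the sum of 6 macrophage markers was 1427 to 2231 CPM in controls and 2448 to 3106 CPM after IC. The sum of 5 neutrophil markers there was 72.6 to 406 CPM in controls and 0.366 to 1.03 CPM after IC. Neither pair of ranges overlapped, whereas in the other subsets both of these sums overlapped. The part of these shifts in the results of Ucp2, Cox7a2l and the other members was not tested.

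The control level of Ucp2 also differed between subsets. Control MHCII+CD11c+ macrophages were above MHCII+CD11c- macrophages by 0.75 ± 0.15 on the log2 scale (adjusted p = 0.00143 by edgeR), and LYVE1+CX3CR1+ macrophages were below MHCII+CD11c+ macrophages by a log2 difference of -0.62 ± 0.14 (adjusted p = 0.00367). Both were called in all 17 alternatives. LYVE1+CX3CR1+ and MHCII+CD11c- controls overlapped (0.13 ± 0.14, adjusted p = 0.943). In order of the group means, Ucp2 was lowest in control MHCII+CD11c- macrophages (732 ± 79.6 CPM, mean ± SD), followed by control LYVE1+CX3CR1+ (798 ± 21.6), control MHCII+CD11c+ (1229 ± 103), IC MHCII+CD11c- (1427 ± 185), IC MHCII+CD11c+ (1584 ± 82.2) and IC LYVE1+CX3CR1+ macrophages (1794 ± 181). Of neighbours in this order, control LYVE1+CX3CR1+ and control MHCII+CD11c+ macrophages were separate, and the libraries of every other neighbouring pair overlapped.

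The responses themselves were compared by an interaction term, in which comparisons of the same subset share its libraries. The response of Ucp2 in LYVE1+CX3CR1+ macrophages exceeded that in MHCII+CD11c+ macrophages by 0.80 ± 0.22 on the log2 scale, which did not pass after adjustment (adjusted p = 0.220 by edgeR). DESeq2 gave 0.98 with an adjusted p of 0.00616, and this was the single alternative of 21 that called it. The LYVE1+CX3CR1+ response minus the MHCII+CD11c- response was 0.21 ± 0.20 (adjusted p = 0.899). For MHCII+CD11c+ minus MHCII+CD11c- the difference was -0.60 ± 0.22 (adjusted p = 1). The exons of Ucp2 overlap Dnajb13 on the other strand over 4.36% of their length, and whether counting used strand is not given in the sources used here.

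**Figure D1:**
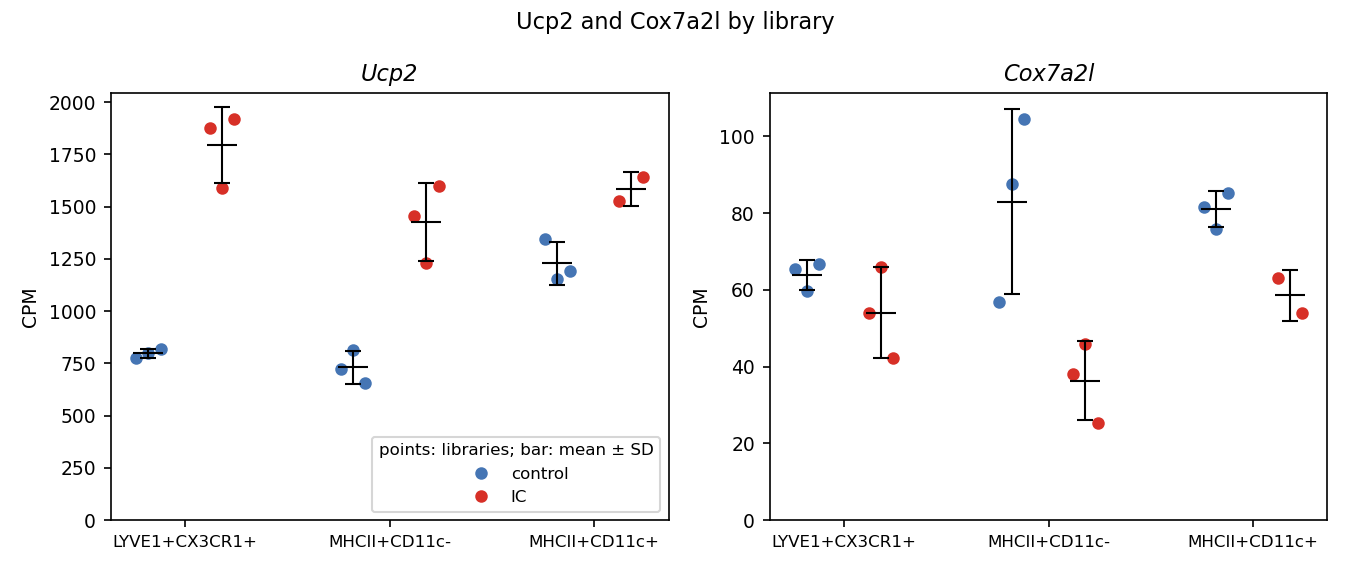
Levels of Ucp2 and Cox7a2l (y axis, CPM) in each library of the 3 sorted subsets (x axis), control in blue and IC in red, with bars for mean ± SD. Ucp2 in IC libraries lies between 1230 and 1918 CPM, above the control libraries of the same subset throughout, and Cox7a2l in MHCII+CD11c- macrophages falls from 56.8 to 104 CPM in controls to 25.3 to 45.8 CPM after IC.

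Nuclear subunits did not pass the test with IC in LYVE1+CX3CR1+ macrophages. No nuclear member of 92 was called by edgeR or by voom, and DESeq2 called 2. By edgeR 9 had an unadjusted p under 0.05, beside 2159 of all 15272 genes tested. The median log2 fold change of the nuclear members was 0.12, beside -0.14 over all genes tested, with 57 above 0 and 35 below. Groups did not overlap for 14 members higher after IC, or 15.2% of them, beside 4.95% of all genes, and for 3 members lower after IC, or 3.26%, beside 16.7% of all genes.

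The members with the smallest p in this subset belonged to complex I. Ndufv2, an iron-sulfur subunit of its electron input arm, had 50.4, 35.9 and 44.4 CPM in controls and 68.3, 68.5 and 93.6 CPM after IC. All IC libraries were above the controls, with a log2 difference of 0.81 ± 0.26 that did not pass (adjusted p = 0.144 by edgeR, 0.0442 by DESeq2). Ndufa11, an accessory subunit of the membrane arm, had 28.0, 24.3 and 23.5 CPM in controls and 38.2, 50.9 and 43.0 CPM after IC. Its groups were also separate and its difference of 0.80 ± 0.28 did not pass by edgeR (adjusted p = 0.179, 0.0257 by DESeq2). Cox6b2, an isoform known from testis, and Ndufa11b, a processed pseudogene in GENCODE M21, were listed at 0 in all 3 IC libraries. In these libraries 3 counts correspond to 0.876 to 1.24 CPM. Their control levels of at most 1.81 and 2.43 CPM lay near that floor, so no fold is given.

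The 1 nuclear member called in MHCII+CD11c- macrophages was Cox7a2l, which fell. It had 56.8, 87.6 and 104 CPM in controls and 38.1, 45.8 and 25.3 CPM after IC. All IC libraries were below the controls, and the log2 fold change was -1.18 ± 0.26 (adjusted p = 0.0251 by edgeR, 0.00109 by DESeq2). The call was kept in 11 of 16 alternatives. It was lost with voom (adjusted p = 0.0526), when only the groups compared were fitted (0.0971), without control replicate 3 (0.189), without IC replicate 1 (0.0511) and without IC replicate 3 (0.220), with log2 fold changes between -1.39 and -0.98 throughout. Cox7a2l was lower after IC in the other subsets as well, by -0.24 ± 0.25 in LYVE1+CX3CR1+ (adjusted p = 0.744) and, with separate groups, by -0.47 ± 0.28 in MHCII+CD11c+ macrophages (adjusted p = 1), neither of which passed. A stretch of 201 bases, 17.8% of its transcript, is identical in the processed pseudogene Gm6969 on chromosome 12, so reads from there could be split.

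Other nuclear members of MHCII+CD11c- macrophages mostly stood above 0 without passing. The median was 0.24, beside -0.03 over all genes, and 63 of 92 were above 0. Of the 92, 9 had an unadjusted p under 0.05 by edgeR, beside 1527 of all 15272 genes tested. Atp5b, the catalytic beta subunit of complex V, had 263, 331 and 242 CPM in controls and 450, 347 and 363 CPM after IC (0.47 ± 0.16, adjusted p = 0.246). Cox5b and Cox5a, subunits of complex IV, differed by 0.57 ± 0.21 (adjusted p = 0.298) and 0.74 ± 0.28 (adjusted p = 0.320). By complex, medians were 0.34 for complex V with 14 of 17 above 0, 0.23 for complex I with 28 of 39 above 0 and -0.27 for the assembly factors with 2 of 8 above 0.

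In MHCII+CD11c+ macrophages no nuclear member was called by edgeR, DESeq2 or voom after IC. By edgeR 2 had an unadjusted p under 0.05, beside 795 of all 15272 genes tested. Here 61 of 92 stood below 0, and the median was -0.19, beside 0.01 over all genes. Ndufa6, an accessory subunit of complex I, had 105, 97.9 and 131 CPM in controls and 76.8 and 70.8 CPM after IC. The groups were separate, and the difference of -0.59 ± 0.27 did not pass (adjusted p = 0.913). Atp5e, the epsilon subunit of complex V (-0.67 ± 0.34, adjusted p = 0.992), and Atp5a1, its alpha subunit (0.37 ± 0.19, adjusted p = 1), did not pass either. Complex III had 6 of 8 and complex IV 13 of 16 members below 0. The opposite signs of the medians in the CD11c+ and CD11c- subsets were not matched by any called interaction.

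Averaged over the subsets with equal weight, IC changed 3 nuclear members, of which 2 are described. Cox7a2l fell by a log2 difference of -0.63 ± 0.15 (adjusted p = 0.0213 by edgeR). Atp5b rose by 0.35 ± 0.10 (adjusted p = 0.0467), with differences of 0.26 in LYVE1+CX3CR1+ cells, 0.47 in MHCII+CD11c- cells and 0.31 in MHCII+CD11c+ cells and separate groups in each. Its partner in the catalytic ring, Atp5a1, was higher by 0.34 ± 0.10 and did not pass (adjusted p = 0.068). Among all genes 1.70% were called higher and 1.65% lower on this average.

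Of 26 alternatives, 23 called Cox7a2l and 9 called Atp5b on the average. DESeq2 and voom each called 4 nuclear members. The count fell to 0 without MHCII+CD11c- control replicate 3, without MHCII+CD11c+ IC replicate 1 and without MHCII+CD11c+ IC replicate 2. It was 1 without any of the 3 LYVE1+CX3CR1+ control libraries, without MHCII+CD11c+ control replicate 1 or 3 and without MHCII+CD11c- IC replicate 3. On the average Ucp2 rose by 0.83 ± 0.09 (adjusted p = 4.34e-06), with all 26 alternatives calling it.

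No member was called in any difference of responses by edgeR. At an unadjusted p under 0.05 there were 3 nuclear members for LYVE1+CX3CR1+ minus MHCII+CD11c-, 5 for LYVE1+CX3CR1+ minus MHCII+CD11c+ and 2 for MHCII+CD11c+ minus MHCII+CD11c-, and 0 mitochondrial members in each. Over all 15272 genes tested the numbers at that threshold were 1152, 1224 and 496 in the same order. DESeq2 and voom called no nuclear or mitochondrial member. Over all genes, the first of these differences had 0.00655% called higher and 0.0196% lower, the second had 0.0131% higher and 0.0196% lower, and the last had 0% in either direction.

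**Figure D2:**
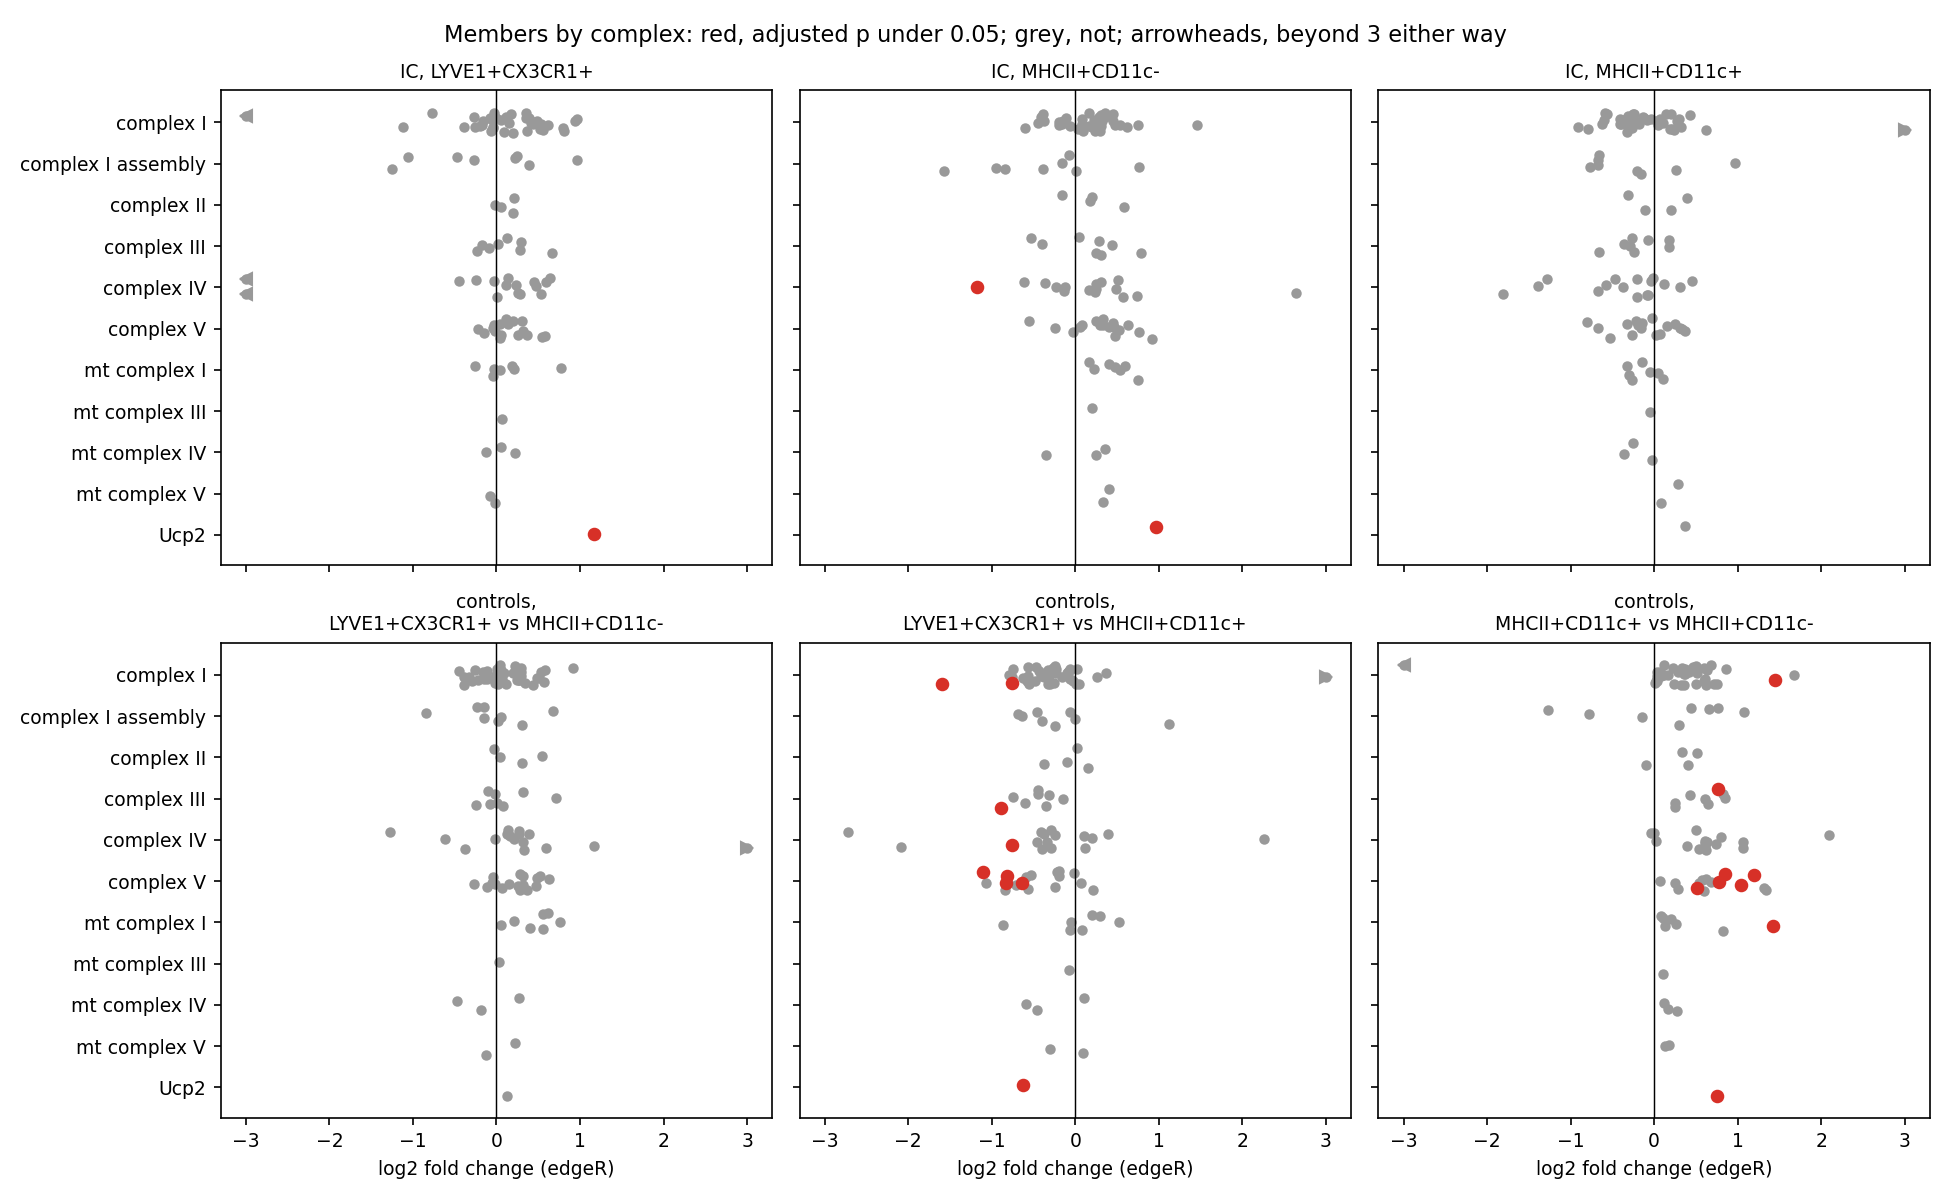
Log2 fold changes (x axis, edgeR) of all tested members by complex (y axis), with IC against control in the upper 3 panels and control subsets in the lower 3; red points have an adjusted p under 0.05. After IC the called points are Ucp2 in 2 subsets and Cox7a2l. Control MHCII+CD11c+ macrophages have 7 nuclear members called above MHCII+CD11c- macrophages and 8 above LYVE1+CX3CR1+ macrophages. Among all genes 3.67% were called in the former of these directions and 7.40% in the latter. With IC within a subset 0% to 0.812% of all genes were called in a direction.

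Control MHCII+CD11c+ macrophages differed from the other control subsets in more genes of all kinds, members included, than IC changed within a subset, with 1323 and 2326 genes called against 33 to 147. The 3 comparisons share control libraries and are given side by side. Between LYVE1+CX3CR1+ and MHCII+CD11c- controls no nuclear member was called by edgeR, DESeq2 or voom, while 0.340% of all genes were called higher and 1.22% lower. By edgeR 0 of 92 had an unadjusted p under 0.05, beside 1564 of all 15272 genes tested. The median was 0.10, beside -0.004 over all genes. Without MHCII+CD11c- control replicate 2 the median was 0.30 and 1 member, Atp5mpl of complex V, was called (1.15, adjusted p = 0.0256). Sdhb, the iron-sulfur subunit of complex II (0.54 ± 0.26, adjusted p = 0.494), Uqcrb of complex III (0.71 ± 0.34, adjusted p = 0.498), Ndufa4 of complex IV (0.59 ± 0.32, adjusted p = 0.576) and Atp5pb (0.37 ± 0.20, adjusted p = 0.586) came closest.

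In control MHCII+CD11c+ macrophages most nuclear members stood above their level in MHCII+CD11c- macrophages. Of 92 tested, 85 had a log2 difference above 0, and the median was 0.51, beside -0.03 over all genes. The test called 7 of them higher (7.61%) and 0 lower, whereas 3.67% of all genes were called higher and 4.99% lower. Groups were separate for 22 higher members (23.9%), beside 12.6% of all genes, and for 0 lower members, beside 14.9% of all genes. By complex the medians were 0.37 for complexes I and II and the assembly factors, 0.61 for complex IV and 0.63 for complexes III and V. All 17 members of complex V and all 8 of complex III stood above 0, and 5 of the 7 called members belonged to complex V.

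Atp5pb, the b subunit of the stalk that holds the catalytic part of complex V in place, had 126, 176 and 137 CPM in MHCII+CD11c+ controls and 55.5, 80.8 and 56.0 CPM in MHCII+CD11c- controls. The groups were separate (1.19 ± 0.20, adjusted p = 0.000316 by edgeR). Ndufa6 had 105, 97.9 and 131 CPM against 37.9, 49.9 and 33.7 CPM. These groups were also separate (1.45 ± 0.25, adjusted p = 0.000398). Both genes were called in all 17 alternatives.

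Atp5h, another stalk subunit, had 158, 152 and 121 CPM against 71.1, 109 and 58.4 CPM. Its groups were separate (0.85 ± 0.24, adjusted p = 0.0271). Atp5e had 59.4, 83.4 and 108 CPM against 29.4, 65.8 and 25.4 CPM, so that MHCII+CD11c- replicate 2 overlapped the higher group (1.04 ± 0.30, adjusted p = 0.0289). Atp5d, the delta subunit beside it in the rotor (0.78 ± 0.24, adjusted p = 0.0409), Uqcrc2, a core protein of complex III (0.76 ± 0.24, adjusted p = 0.0462), and Atp5b (0.52 ± 0.16, adjusted p = 0.0462) were also called and had separate groups. The exons of Uqcrc2 overlap Pdzd9 on the other strand over 19.7% and those of Atp5pb overlap other genes there over 8.21%. Copies of at least 97% identity cover 71.1% of the Atp5h transcript (Gm10250) and 43.4% of that of Atp5pb (Gm12231), so how reads were shared with them is uncertain.

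The number called moved with single libraries, and the share of all genes called without each is not given here. Nuclear members called were 16 without MHCII+CD11c- control replicate 2 and 2 without MHCII+CD11c- control replicate 3. They were 3 without MHCII+CD11c- control replicate 1 or MHCII+CD11c+ control replicate 2. The median stayed between 0.33 and 0.65 in all of these. The summed level of complex V shows the same library, with 1764 to 2245 CPM in MHCII+CD11c+ controls, 1063 to 1637 CPM in MHCII+CD11c- controls and 1384 to 1543 CPM in LYVE1+CX3CR1+ controls.

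In control LYVE1+CX3CR1+ macrophages most nuclear members stood below their MHCII+CD11c+ level. Of 92 nuclear members 76 had a difference below 0, with a median of -0.32, beside 0.05 over all genes. The test called 8 lower (8.70%) and 0 higher, close to the 7.40% of all genes called lower, while 7.83% of all genes were called higher. Complex V contributed 4 of the 8, complex I 2, and complexes III and IV 1 each, and all 8 had separate groups.

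Ndufa6 again had the smallest p, with 42.6, 33.7 and 33.6 CPM in LYVE1+CX3CR1+ controls against the MHCII+CD11c+ values above (-1.60 ± 0.25, adjusted p = 5.99e-05 by edgeR). Atp5pb had 90.2, 82.0 and 76.4 CPM (-0.82 ± 0.20, adjusted p = 0.00469). Both were called in all 17 alternatives. Atp5e (-1.10 ± 0.30, adjusted p = 0.0127), Atp5d (-0.82 ± 0.24, adjusted p = 0.0183), Ndufa13, an accessory subunit of complex I (-0.76 ± 0.24, adjusted p = 0.0336), and Atp5c1, the gamma subunit that turns in complex V and whose start region with its NRF1 match is printed above (-0.64 ± 0.20, adjusted p = 0.0339), were called in 11 to 14 of 17. Uqcrq of complex III (-0.89 ± 0.29, adjusted p = 0.0355) and Cox7b of complex IV (-0.76 ± 0.25, adjusted p = 0.0426) complete the list and are named to account for all 8. The exons of Ndufa13 overlap Tssk6 on the other strand over 30.0%. Without LYVE1+CX3CR1+ control replicate 2 the count was 2, and without LYVE1+CX3CR1+ control replicate 3 or MHCII+CD11c+ control replicate 3 it was 3.

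Neutrophil markers and the trend of level with transcript length in the MHCII+CD11c+ control libraries were separate from those of LYVE1+CX3CR1+ controls and overlapped those of MHCII+CD11c- controls. The sum of 5 neutrophil markers was 72.6 to 406 CPM there, 1.67 to 231 CPM in MHCII+CD11c- controls, 0.314 to 7.38 CPM in LYVE1+CX3CR1+ controls and 0.366 to 1.03 CPM in MHCII+CD11c+ libraries after IC, and none of the 5 was at 0 in MHCII+CD11c+ controls. The 6 fibroblast markers summed to 8.68 to 205 CPM in MHCII+CD11c+ controls, a range that encloses the 63.8 to 84.1 CPM of MHCII+CD11c- and the 33.4 to 66.0 CPM of LYVE1+CX3CR1+ controls. The 8 skeletal muscle markers summed to 17.7 to 23.6 CPM, inside the 15.0 to 25.4 CPM of MHCII+CD11c- controls. Level changed with transcript length by -0.062 to -0.031 log2 units per doubling in those libraries, -0.034 to 0.040 in MHCII+CD11c- and 0.0095 to 0.057 in LYVE1+CX3CR1+ controls, and tested nuclear members were shorter (median exon length 1578 bp) than all genes tested (3856 bp). With an offset for length the median between the MHCII+ controls was 0.42 and 7 nuclear members were called, with Atp5c1 in place of Atp5d. Between LYVE1+CX3CR1+ and MHCII+CD11c+ controls the median was -0.24, Ndufa13 and Cox7b were no longer called and Cox6a1 was called higher. The part of neutrophil RNA in these differences was not tested.

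**Figure D3:**
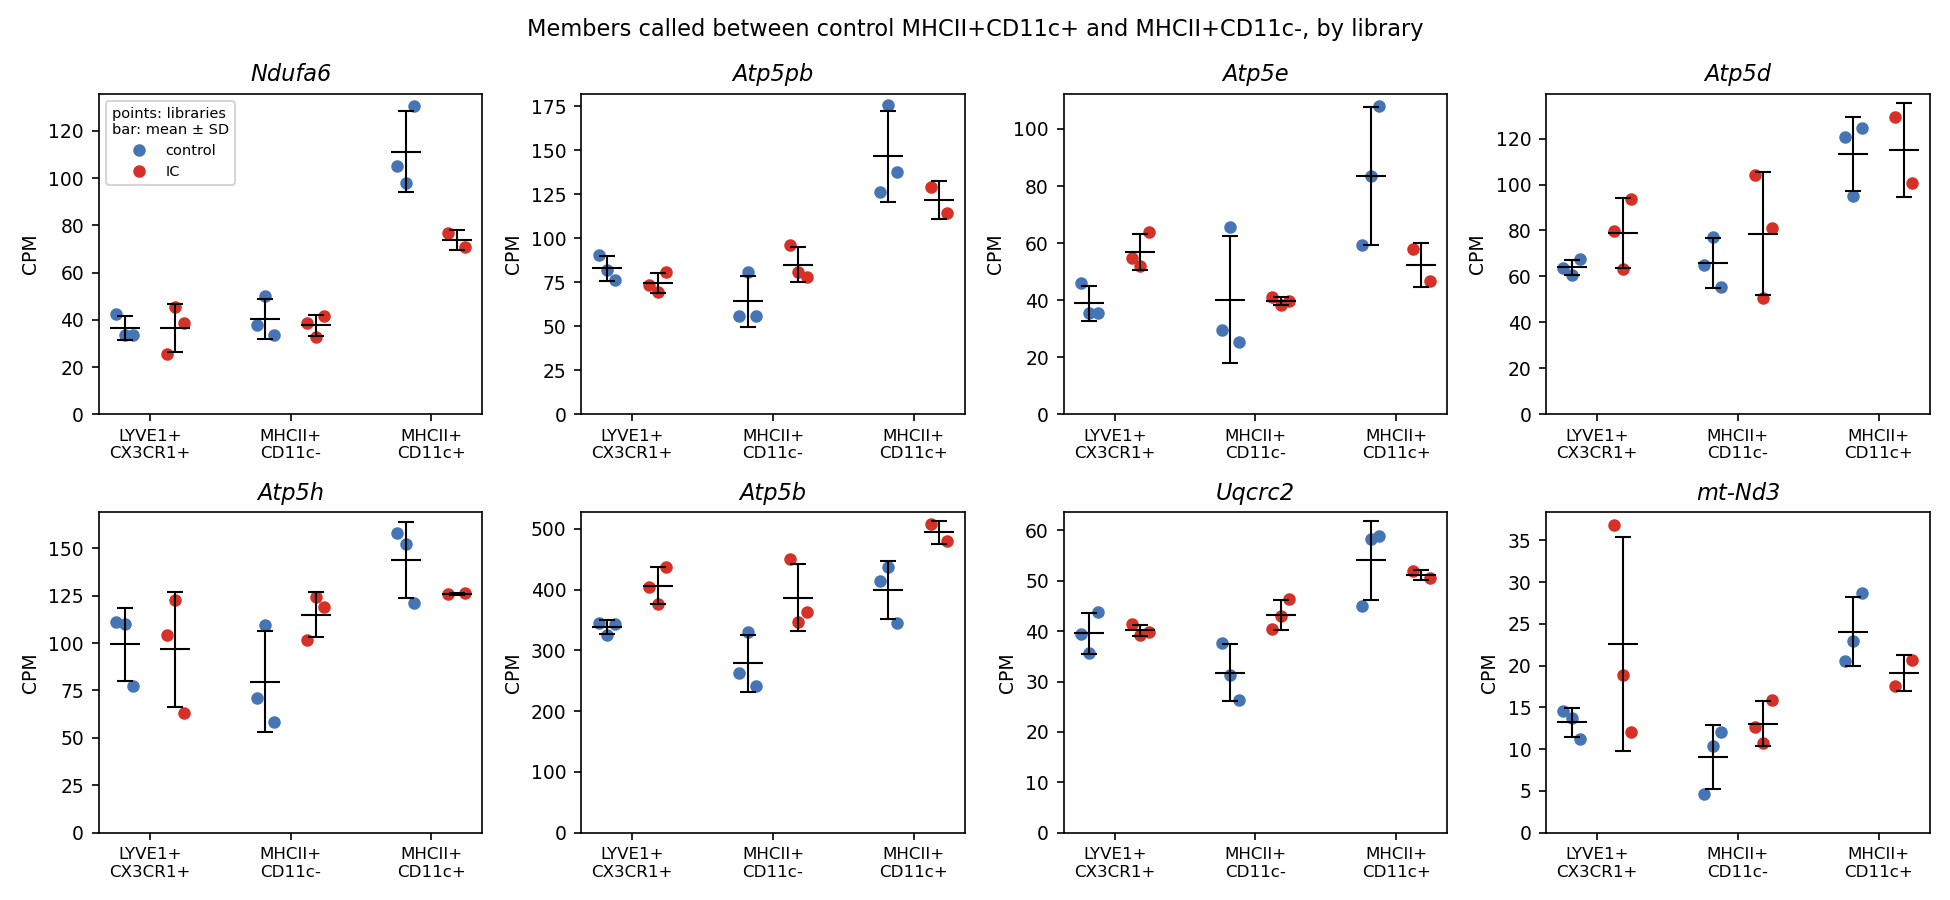
Levels (y axis, CPM) of the 7 nuclear members and of mt-Nd3, all called between control MHCII+CD11c+ and MHCII+CD11c- macrophages, in each library of the 3 subsets (x axis), with bars for mean ± SD. Control MHCII+CD11c+ libraries of Ndufa6 lie between 97.9 and 131 CPM, and those of MHCII+CD11c- and LYVE1+CX3CR1+ between 33.6 and 49.9 CPM.

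The other core subunits named for each complex gave no call by edgeR in any comparison of IC or of controls. These were Ndufs1 and Ndufv1 of complex I, Sdha and Sdhb of complex II, Uqcrc1 and Uqcrfs1 of complex III, and Cox4i1 and Cox5a of complex IV, and their smallest adjusted p was 0.0935 by edgeR, for Uqcrfs1 between the MHCII+ controls. Uqcrfs1, the Rieske iron-sulfur protein, was called there with voom (0.88, adjusted p = 0.0441), with surrogate variables (1.01, adjusted p = 0.00321) and without MHCII+CD11c+ control replicate 3 (1.13, adjusted p = 0.0107), and Cox4i1 with surrogate variables (0.66, adjusted p = 0.0460) and without MHCII+CD11c- control replicate 2 (0.80, adjusted p = 0.0349). For LYVE1+CX3CR1+ against MHCII+CD11c+ controls DESeq2 called Uqcrc1 (-0.51, adjusted p = 0.0288) and Uqcrfs1 (-0.80, adjusted p = 0.0484). Sdha, the flavoprotein of complex II, ranged from 98.8 to 182 CPM over the control libraries and from 136 to 183 CPM after IC. The isoforms known from muscle, lung or testis, and also Ndufa4l2, were low in every library. Cox4i2 had at most 3.30 CPM, Cox6a2 at most 3.77 CPM, Ndufa4l2 at most 6.30 CPM, Cox7a1 at most 8.48 CPM and Cox6b2 at most 8.70 CPM, and no fold is given for them.

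Per length of exon, the nuclear members with the highest median level over 17 libraries were Atp5a1 (114 CPM per kilobase), Cox8a (103), Cox4i1 (93.9), Atp5mpl (89.3) and Atp5b (85.6). Their ranges overlapped, for instance 85.2 to 156 CPM per kilobase for Atp5a1 and 55.7 to 135 for Cox8a, so their order is not resolved. Assembly factors were low, with medians of 1.71 CPM per kilobase for Ndufaf6, 2.09 for Ndufaf4 and 2.26 for Ndufaf1.

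Mitochondrial members did not change detectably with IC. None of the 13 was called by edgeR, DESeq2 or voom in any subset or on the average. The number at an unadjusted p under 0.05 was 0 for the LYVE1+CX3CR1+ subset, 2 for MHCII+CD11c-, 0 for MHCII+CD11c+ and 1 on the average. Over all 15272 genes tested it was 2159, 1527, 795 and 2706 in that order. The medians of the mitochondrial members were 0.04, 0.36 and -0.05 in the subsets. In MHCII+CD11c- macrophages 12 of 13 stood above 0, led by mt-Nd1 (0.60 ± 0.23, adjusted p = 0.320) and mt-Nd2 (0.47 ± 0.21, adjusted p = 0.417), both core subunits of complex I. mt-Nd1 had 656, 1220 and 917 CPM in controls and 1165, 1417 and 1641 CPM after IC, with control replicate 2 inside the IC range.

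The order of mitochondrial levels per kilobase was led by mt-Co1, the catalytic subunit of complex IV, with a median of 1906 CPM per kilobase, followed by mt-Nd1 (1275), mt-Cytb (921), mt-Nd5 (648), mt-Nd2 (617), mt-Nd6 (477) and mt-Nd4 (439). A second set followed at mt-Atp6 (79.6), mt-Nd3 (42.0), mt-Co2 (37.6), mt-Nd4l (24.7), mt-Co3 (24.0) and mt-Atp8 (14.2). The lowest value of mt-Nd4 in any library, 277 CPM per kilobase, was above the highest of mt-Atp6, 128 CPM per kilobase. Within each set neighbouring ranges overlapped. Except for mt-Atp8, every gene of the lower set has a near-identical annotated copy on chromosome 1 that is a row of the count table. Only annotated transcripts were searched, so a copy of mt-Atp8 without annotation would have been missed.

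**Figure D4:**
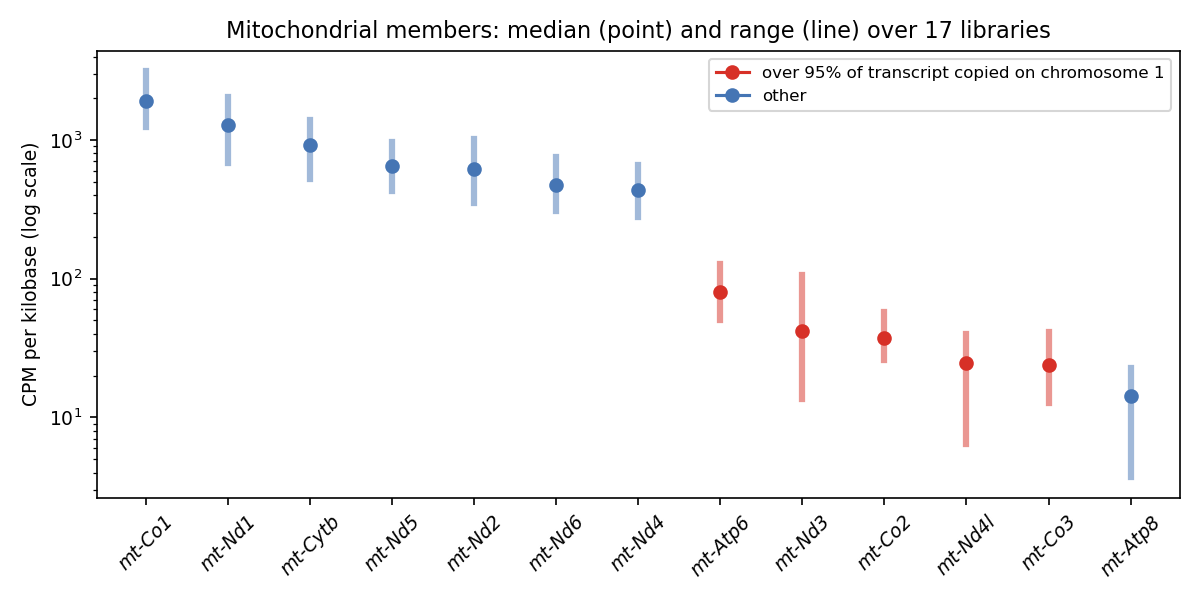
Level of each mitochondrial member per kilobase (y axis, CPM per kilobase, log scale), ordered by median (point) with the range over 17 libraries (line). Red genes, over 95% of whose transcript is copied in an annotated gene on chromosome 1, lie at medians of 24.0 to 79.6 CPM per kilobase. Blue genes lie at 439 to 1906 except mt-Atp8 at 14.2.

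These copies are pseudogenes in GENCODE M21, compared here at an identity of at least 97% over at least 100 bases. mt-Atp6 matched Gm10925, mt-Co2 matched Gm28661, mt-Co3 matched Gm28437 and mt-Nd4l matched Gm10222, each at 100% identity. The copy held 62.0% of the counts of both for mt-Atp6, 54.3% for mt-Co2, 51.9% for mt-Co3 and 48.8% for mt-Nd4l. For mt-Nd4, whose copy Gm28439 covers 63.6% of the transcript, the share was 1.83%, and for mt-Co1, whose best copy Gm13340 on chromosome 2 is 97.6% identical, it was 0.103%. Levels of the genes with identical copies are therefore uncertain, and the treatment of reads with several matches is not given in the sources used here.

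mt-Nd3 differs from its copy Gm28438 by a single base in 345 aligned bases (99.7% identity), and its first 100 bases are shown with that base in capitals. Positions are counted from the start of mt-Nd3.
mt-Nd3, chrM:9459-9558, plus strand: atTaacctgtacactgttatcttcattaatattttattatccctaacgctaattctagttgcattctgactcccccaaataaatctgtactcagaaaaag
Gm28438, chr1:24613020-24613119, minus strand: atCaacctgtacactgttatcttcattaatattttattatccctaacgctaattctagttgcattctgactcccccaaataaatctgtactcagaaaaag
The difference is T3C, and the copy held 14.1% of the counts of both. Within the aligned bases only reads over that base can tell gene and copy apart, so the level of mt-Nd3 is uncertain as well.

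Between control subsets mt-Nd3 was the single mitochondrial member called. It had 20.6, 23.0 and 28.7 CPM in MHCII+CD11c+ and 4.68, 10.4 and 12.0 CPM in MHCII+CD11c- macrophages, which did not overlap (1.42 ± 0.45, adjusted p = 0.0476 by edgeR). The call was lost when any 1 of the 6 libraries compared was left out, the adjusted p reaching 0.206 without MHCII+CD11c- control replicate 1, and 7 of 17 alternatives made it. How reads of mt-Nd3 were shared with its near-identical copy is uncertain. All 13 mitochondrial members stood above 0 in this comparison, with a median of 0.17. Between LYVE1+CX3CR1+ and MHCII+CD11c- controls edgeR and DESeq2 called none, 2 had an unadjusted p under 0.05, and voom called 1, mt-Nd2 (0.58, adjusted p = 0.0370). Between LYVE1+CX3CR1+ and MHCII+CD11c+ controls edgeR, DESeq2 and voom called none. There 1 had an unadjusted p under 0.05, mt-Nd2 (0.53 ± 0.21, adjusted p = 0.0882 by edgeR), which was called without MHCII+CD11c+ control replicate 2 (adjusted p = 0.0231). Of all 15272 genes tested, 1564 had an unadjusted p under 0.05 in the former comparison and 4066 in the latter.

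Genes that serve the chain from outside the naming rule were listed as well, in 9 lists. After IC, Polg2, the accessory subunit of the mitochondrial DNA polymerase, fell in LYVE1+CX3CR1+ macrophages (-2.03 ± 0.37, adjusted p = 0.00974) and was 1 of 13 tested genes of mitochondrial DNA upkeep and transcription. Mrpl52, a protein of the large mitochondrial ribosomal subunit, rose in MHCII+CD11c- macrophages (1.49 ± 0.34, adjusted p = 0.0323) and was 1 of 78 tested ribosomal genes. Among all genes 0.812% were called lower in LYVE1+CX3CR1+ and 0.543% higher in MHCII+CD11c- macrophages. In MHCII+CD11c+ macrophages edgeR called no gene of these lists after IC. On the average over subsets Slc25a5, an exchanger of ADP and ATP, rose by 0.47 ± 0.09 (adjusted p = 0.00432), Mrpl52 rose by 1.01 ± 0.20 (adjusted p = 0.00413) and Polg2 fell by a log2 difference of -0.89 ± 0.21 (adjusted p = 0.0210). That average had 1.70% of all genes called higher and 1.65% lower.

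Among controls, Cycs, which encodes the cytochrome c that carries electrons from complex III to complex IV, exceeded its MHCII+CD11c- level in MHCII+CD11c+ macrophages (0.81 ± 0.24, adjusted p = 0.0319) and was lower in LYVE1+CX3CR1+ macrophages than there (-0.89 ± 0.24, adjusted p = 0.0111). Uqcc2, an assembly factor of complex III (1.26 ± 0.38, adjusted p = 0.0386), and Mdh2 of the citric acid cycle (0.69 ± 0.19, adjusted p = 0.0218) were higher in MHCII+CD11c+ controls on the same comparison, as was Slc25a5 (0.54 ± 0.16, adjusted p = 0.0291). Polg2 was lower there (-1.52 ± 0.35, adjusted p = 0.00687). Idh2, which makes NADPH in mitochondria, was lower there too (-1.52 ± 0.24, adjusted p = 0.000139) and higher in LYVE1+CX3CR1+ controls when set against MHCII+CD11c+ (1.60 ± 0.24, adjusted p = 3.44e-05). Of 78 tested mitochondrial ribosomal genes, 3 were higher and 0 lower in MHCII+CD11c+ against MHCII+CD11c- controls, and 4 were lower and 0 higher in LYVE1+CX3CR1+ against MHCII+CD11c+ controls, shares near and below the 3.67% and 7.40% of all genes called in these directions. Fh1 of the citric acid cycle was lower in the LYVE1+CX3CR1+ controls than in those of MHCII+CD11c- (-1.15 ± 0.25, adjusted p = 0.0145) and was the single gene of the lists called there. The 10 tested regulators of mitochondrial biogenesis gave no call in any of these comparisons by edgeR.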

How the data were processed

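Bulk RNA-seq libraries of sorted synovial macrophages were analysed from the gene counts deposited by the authors. According to the study's methods and the submitters' processing notes, reads were trimmed with Trim Galore, checked with FastQC, aligned to mm10 with HISAT2 and counted per gene with featureCounts, while DESeq2 and sva served the study's own comparisons. Versions, the annotation and the use of strand or of reads with several matches are not given in the sources used here. Counts of the 17 libraries were identical in the joint table and the single files, and 1 column of the joint table, which matched no sample, was not used. Groups and replicate numbers came from the sample labels. No pair of replicates agreed within sampling noise (chi-square per degree of freedom of at least 6.77).

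Genes were kept by filterByExpr with a minimum count of 10 (15272 of 22859), scaled by TMM and fitted in edgeR 4.0.16 with robust quasi-likelihood over all 6 groups with 11 residual degrees of freedom (R 4.3.3). CPM values are TMM-scaled, and a gene was called at a Benjamini-Hochberg adjusted p under 0.05 over all genes tested. The SE of a log2 difference is its absolute value divided by the square root of the quasi-likelihood F statistic. That statistic rests on the fit over all 6 groups. The scripts were tested on simulated counts. Alternatives were RLE size factors, unscaled totals, TMM without mitochondrial members, no filter, DESeq2 1.42.0, voom with quality weights in limma 3.58.1, fitting only the groups compared, a replicate block, surrogate variables from sva 3.50.0, an offset for exon length, a threshold of 0.01 and leaving out each library in turn. Precision rests on 2 or 3 libraries a group.

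Members and lists were chosen with earlier results of these data known. Named are Ucp2, all mitochondrial members, fixed core subunits, tissue isoforms and Ndufa4l2. Up to 6 nuclear members called in each direction of a comparison are named by smallest p (at least 4 in all, said not to pass where they did not). Uqcrq, Cox7b, Cox6a1 and Atp5mpl, and members named for their level, were chosen after their values were seen. Results of 1 member that these rules name are not reported here. Promoters came from RefSeq (GRCm38.p6), and exons, overlaps and copies from GENCODE M21 (GRCm38), to which 109 members were matched.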

Additional observations from a re-analysis of the deposited data

How the results depend on the processing

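No result changed direction under any alternative run, and each called Ucp2 change stayed called. The numbers of nuclear members called moved as follows. Shares of all genes called under each alternative are not given beside them, so these counts do not compare members with other genes. The same holds for counts with a replicate block or without a library. DESeq2 gave 2 for IC in LYVE1+CX3CR1+ macrophages and 12 between control MHCII+CD11c+ and MHCII+CD11c- macrophages. Surrogate variables gave 2, 18 for the same comparison of controls, and 15 between LYVE1+CX3CR1+ and MHCII+CD11c+ controls. Voom gave 0 for IC in MHCII+CD11c- macrophages, 14 for LYVE1+CX3CR1+ against MHCII+CD11c+ controls, and 1 mitochondrial member for LYVE1+CX3CR1+ against MHCII+CD11c- controls. Fitting only the groups compared gave 0 for IC in MHCII+CD11c- macrophages, 2 nuclear and 0 mitochondrial members between the MHCII+ controls. Totals without TMM gave 1 on the IC average. Without the filter, with the length offset or at 0.01, mt-Nd3 was not called (0), and the length offset called 1 mitochondrial member between LYVE1+CX3CR1+ and MHCII+CD11c+ controls. At 0.01 the nuclear counts were 0 for IC in MHCII+CD11c- macrophages, 0 on the average and 2 in both comparisons with MHCII+CD11c+ controls. The causes were not tested.

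Deviations of same-numbered libraries correlated at -0.15 to 0.082 between IC and control libraries of a subset. Between control subsets the correlations were 0.0074 to 0.29, all above 0. The main fit did not take the numbers as pairs, and whether same-numbered control subsets came from the same mice was not tested. With a replicate block the nuclear count on the IC average was 1, the mitochondrial counts were 1 for LYVE1+CX3CR1+ against MHCII+CD11c+ controls and 0 between the MHCII+ controls, and a block within controls gave 14 nuclear members between the MHCII+ controls.

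Leaving out 1 library gave nuclear counts of 0 to 1 for IC in MHCII+CD11c- macrophages, 0 to 4 on the average, 0 to 1 for LYVE1+CX3CR1+ against MHCII+CD11c- controls, 2 to 6 for LYVE1+CX3CR1+ against MHCII+CD11c+ controls and 2 to 16 between the MHCII+ controls. Mitochondrial counts were 0 to 1 for LYVE1+CX3CR1+ against MHCII+CD11c+ controls and 0 between the MHCII+ controls. For LYVE1+CX3CR1+ against MHCII+CD11c- controls the median of nuclear members was 0.0019 to 0.30. With 2 libraries, MHCII+CD11c+ macrophages after IC allow the least precise comparison, and members under about 1 CPM could not be followed at these depths.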
